A study of Mus musculus with 20 samples.

Results

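Claudins are membrane proteins that join neighboring epithelial or endothelial cells at the tight junction and set which ions and solutes pass between the cells. The 10 genes described here, Cldn1, Cldn2, Cldn3, Cldn4, Cldn5, Cldn6, Cldn7, Cldn8, Cldn12 and Cldn15, were taken by symbol from a gene count table of 54532 genes, as the claudins left when the 4 claudins of the thick ascending limb (Cldn10, Cldn14, Cldn16 and Cldn19) were set aside. The table held 35 claudin genes in all. Of the 10, 9 passed a filter on low counts and were tested, and Cldn6 did not.

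The libraries came from a mouse model of clear cell renal cell carcinoma. C57BL/6 mice that carried LSL-Cas9/+ and Pax8 Cre/+, so that Cas9 was made in cells of the Pax8 lineage, had their kidneys injected with a Cre-less AAV that delivered guides against Vhl, Pbrm1, Keap1 and Tsc1. Bulk poly A RNA was sequenced from 10 tumors and from 10 normal kidney samples. The tumors came from 10 separate mice, injected as young adults of both sexes, and the normal samples were kidney regions of those mice, so the controls shared the alleles. Whether a normal region lay in an injected kidney and the age at collection were not given in the sources used here. The labels do not say that a shared library number marks a mouse, so the groups were compared unpaired.

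In the nephron, claudins are spread by segment. Cldn2 forms a pore for cations and water in the leaky proximal tubule, Cldn12 is tied to calcium passage there, and Cldn15 is another pore-forming member. Cldn1 lies in the parietal epithelium of Bowman's capsule, Cldn3, Cldn4, Cldn7 and Cldn8 are made in the tighter distal segments and the collecting duct, where Cldn4 and Cldn8 are known to act together in chloride passage. Cldn5 and Cldn6 fall outside a strict reading of tubule junctions, since Cldn5 is the main claudin of endothelium and Cldn6 is best known from embryonic epithelium. In bulk RNA, fewer cells of a type and less RNA per cell cannot be told apart.

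Total counts were 18447394 to 24902973 in the tumors and 14737516 to 26679704 in the normal kidneys. Marker genes of the distal nephron were lower in tumors, with all 21 tested markers of thick ascending limb, distal convoluted tubule, principal cells and intercalated cells called lower (median log2 fold changes of -10.22, -9.20, -7.94 and -7.43), whereas 3 of 9 proximal tubule markers were called lower, and of 8 endothelial markers 1 was higher and 1 lower. Of the 4 genes the guides target, Vhl (21.6 to 28.8 CPM in normal kidneys, 12.3 to 28.6 CPM in tumors) and Tsc1 (18.9 to 62.1 and 25.7 to 52 CPM) were lower in tumors, Keap1 (36.6 to 50.6 and 56 to 91.3 CPM) was higher and Pbrm1 (20 to 93 and 36.2 to 74.9 CPM) was not called, and small edits in DNA need not change the RNA level. Some libraries stood apart. Normal kidneys 5, 7 and 8 had the highest mean level of 7 tubule injury genes among the normal kidneys (log2 CPM, where CPM is a gene's counts scaled to a common library size, of 6.46, 7.24 and 5.88, against 2.35 to 4.89 in the others), normal kidney 9 had the lowest normalization factor (0.749 against 1.03 to 1.14), and tumor 7 had the highest summed level of urothelial markers (126 CPM against a tumor median of 1.22 CPM) and of fibroblast markers (8035 CPM against a tumor median of 216 CPM).

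Of the 9 tested claudins, 3 were higher in tumors (Cldn1, Cldn2 and Cldn3), 3 were lower (Cldn5, Cldn8 and Cldn12) and 3 were not called (Cldn4, Cldn7 and Cldn15) at an adjusted p under 0.05 by edgeR's quasi-likelihood test. Over all 15354 genes tested, 23.6% were called higher and 23.8% lower, 47.5% in all, and 6 of 9 is to be read against that. Under the stricter limits of an absolute log2 fold change over 1 and an unadjusted p under 0.001, which called 8.85% of all genes higher and 10.2% lower, 2 claudins were higher (Cldn1 and Cldn3) and 1 lower (Cldn8). The count of 3 lower was 5 without tumor 1 or without tumor 7 and 6 without tumor 9, where Cldn6 passed the filter and Cldn15 was called, with Cldn7 also called without tumor 9. The claudins differed from one another in the size of the change, from a log2 fold change of 2.20 for Cldn3 to -8.02 for Cldn8, and whether the groups overlapped. Every tumor lay above every normal kidney for Cldn1 and Cldn3, which held for 5.87% of all genes tested, and below every normal kidney for Cldn8, which held for 4.74%.

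**Figure D1:**
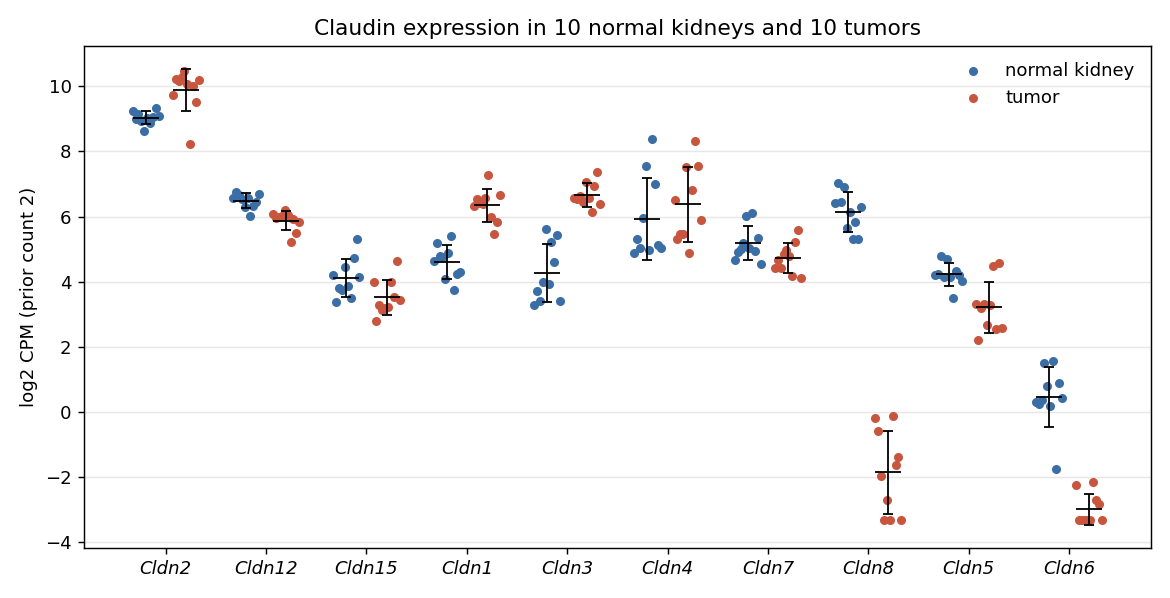
Expression of each claudin as log2 CPM (prior count of 2, y axis) in 10 normal kidneys (blue) and 10 tumors (red), with 1 point per library and black bars for the mean and SD. Cldn1, Cldn3, Cldn6 and Cldn8 did not overlap between the groups, and tumor 7 stood below all other libraries in Cldn2.

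The stretches just upstream of the genes of the 3 claudins that rose are shown because they are the members with a called rise. Each is the 250 bases before the RefSeq start in GRCm38.p6, written 5′ to 3′ on the gene's strand, with capitals for a match to one of 5 searched motifs. Cldn1 lies on the minus strand at chr16:26371840-26372089 and its capitals mark TGANNNNGC, the core of the antioxidant response element, read on the opposite strand. Cldn2 lies on the plus strand at chrX:139800558-139800807 and held none of the 5 motifs. Cldn3 lies on the plus strand at chr5:134985964-134986213 and its capitals mark ACGTG, a form of the core bound by hypoxia-inducible factors, read on the opposite strand.
Cldn1: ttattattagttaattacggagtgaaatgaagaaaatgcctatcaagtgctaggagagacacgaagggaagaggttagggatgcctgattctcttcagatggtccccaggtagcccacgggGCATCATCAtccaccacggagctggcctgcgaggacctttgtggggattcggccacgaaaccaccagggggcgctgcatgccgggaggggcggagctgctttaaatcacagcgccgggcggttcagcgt
Cldn2: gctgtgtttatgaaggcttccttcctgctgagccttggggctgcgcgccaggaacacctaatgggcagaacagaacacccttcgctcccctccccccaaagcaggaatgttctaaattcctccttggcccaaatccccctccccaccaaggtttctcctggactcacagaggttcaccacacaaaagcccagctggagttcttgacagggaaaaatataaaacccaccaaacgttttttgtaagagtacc
Cldn3: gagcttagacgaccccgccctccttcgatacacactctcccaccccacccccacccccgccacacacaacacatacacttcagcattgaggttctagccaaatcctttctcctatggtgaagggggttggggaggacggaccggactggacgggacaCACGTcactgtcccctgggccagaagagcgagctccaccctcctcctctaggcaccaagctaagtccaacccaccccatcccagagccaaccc

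The motifs were searched on both strands in the upstream windows of the 9 members with an entry, and Cldn8 had none. ACGTG was found in 1 of the 9 (Cldn3), against 16.6% of 32851 promoter windows of the same length, and CACGTG, the E-box of the MiT/TFE factors that contains ACGTG, was found in none, against 6.02%. The form GCGTG of the hypoxia-inducible factor core was not searched, so the other members cannot be said to lack that core. TGANNNNGC was found in 3 (Cldn1, Cldn7 and Cldn15), against 35.2%, and CAGGTG, the E-box bound by Snail and Zeb repressors, in 3 (Cldn4, Cldn6 and Cldn7), against 17.2%. AACCNGTT, the grainyhead core, was found in 1 (Cldn5), against 1.79%. A match describes letters in a window and is not a bound site, and a claudin with several RefSeq starts was counted when any of its windows matched.

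Cldn2 was the most abundant claudin in both groups, at 158.5 ± 21 CPM per kb of gene length in normal kidneys and 306.5 ± 96 CPM per kb in tumors (SD, n = 10 each). The gene spans positions 139800828 to 139811386 of chromosome X on the plus strand of mm10, and its whole coding sequence lies in 1 exon. In normal kidneys its level ranged from 395.8 to 643.3 CPM with a median of 525.6 CPM, and in tumors from 299.3 to 1409 CPM with a median of 1117 CPM. In 9 tumors the level was above every normal kidney, while tumor 7 was below every normal kidney. The fold change was 1.93, a log2 fold change of 0.95 (SE 0.192, adjusted p = 3.46e-04). Set against the mean of 9 proximal tubule markers in the same library, Cldn2 was 1.98 log2 units higher in tumors than in normal kidneys (SE 0.319, permutation adjusted p = 6.6e-05), with 8 tumors above every normal kidney. These markers did not move as 1, since 3 were called lower and 6 were not called, with a median log2 fold change of -0.44.

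Cldn12, whose 4 to 5 exons hold the coding sequence in 1 of them (chromosome 5, 5489537 to 5514958, minus strand), moved the other way. Normal kidneys held 64.8 to 108.3 CPM with a median of 93.3 CPM, and tumors 37.3 to 73.2 CPM with a median of 62.5 CPM. In 7 tumors it was below every normal kidney and the groups overlapped in the rest. The log2 fold change was -0.60 (SE 0.118, adjusted p = 2.51e-04). Relative to the proximal tubule markers, Cldn12 was 0.51 log2 units higher in tumors, which did not pass the test (SE 0.321, permutation adjusted p = 0.161). That difference was 0.95 (permutation adjusted p = 0.00317) when normal kidneys 5, 7 and 8 were left out. These kidneys were the highest normal kidneys in Cldn12 relative to the markers, so leaving them out widens the difference by construction.

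Cldn15 (chromosome 5, 136966616 to 136975858, plus strand, 5 to 6 exons) was lower on average in tumors, but its groups overlapped. It ranged from 10.4 to 39.5 CPM with a median of 16 CPM in normal kidneys and from 6.78 to 24.9 CPM with a median of 10.2 CPM in tumors. Normal kidney 9 and tumor 9 were the highest of their groups. The log2 fold change was -0.62 (SE 0.255, adjusted p = 0.0522), and leaving out normal kidney 2, 3, 4 or 7 or tumor 1, 7 or 9 brought the adjusted p to between 0.00987 and 0.0495. The ratio of Cldn12 to Cldn15, both pore or calcium claudins, differed by -0.01 on the log2 scale (SE 0.321, permutation adjusted p = 0.964).

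Cldn1, a barrier claudin that the skin and many other epithelia need to hold water (chromosome 16, 26356642 to 26371841, minus strand, 4 exons), rose in every tumor. It ranged from 13.4 to 42.7 CPM with a median of 25.8 CPM in normal kidneys and from 44.1 to 154.1 CPM with a median of 83.7 CPM in tumors. The lowest tumor, tumor 8, was just above the highest normal kidney, normal kidney 7, and the groups did not overlap. The fold change was 3.34, a log2 fold change of 1.74 (SE 0.221, adjusted p = 1.42e-06). Its ratio to Cldn2 was 0.88 log2 units higher in tumors (SE 0.268, permutation adjusted p = 0.00535), with 3 tumors above every normal kidney.

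Cldn3, another sealing claudin, is a gene with a single exon (chromosome 5, 134986214 to 134987472, plus strand). It showed the largest rise of the 9 tested claudins. Normal kidneys ranged from 9.62 to 48.6 CPM with a median of 15.5 CPM, and tumors from 69.8 to 164.9 CPM with a median of 95.4 CPM. Normal kidneys 5, 7 and 9 were the highest of their group, at 37.4 to 48.6 CPM, and every tumor was above them. The fold change was 4.59, a log2 fold change of 2.20 (SE 0.303, adjusted p = 4.34e-06), and 2.64 without normal kidneys 5, 7 and 8. Set against 5 thick ascending limb markers, whose median log2 fold change was -10.22, the difference was 12.45 log2 units (SE 0.646, permutation adjusted p = 5.5e-05). The mean of these markers was 8.97 log2 CPM in normal kidneys and -1.07 in tumors, so the difference and its test mostly restate the fall of the markers. With markers so near 0 in tumors, the size of the difference depends on the prior count. An antisense gene, Wbscr25, overlaps Cldn3, with a mean of 0.5 counts per library in each group against 459 and 2127 counts for Cldn3.

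Cldn4, which lies close to Cldn3 on chromosome 5 (134945119 to 134946934, minus strand, 1 exon), did not follow it. Its level ranged from 29.1 to 335.2 CPM with a median of 37.4 CPM in normal kidneys and from 29.2 to 320.0 CPM with a median of 76.0 CPM in tumors. Normal kidneys 5, 7 and 8, at 188.9, 335.2 and 128.3 CPM, stood above the other normal kidneys (29.1 to 62 CPM), and tumors 5, 8 and 9, at 181.9, 320.0 and 188.0 CPM, above the other tumors (29.2 to 113.0 CPM). The log2 fold change was 0.28 (SE 0.529, adjusted p = 0.689), and -0.06 without tumor 8 (adjusted p = 0.938). Without normal kidneys 5, 7 and 8 it was 1.57 (adjusted p = 0.00683), and these 3 were the highest normal kidneys in Cldn4 itself as well as in the tubule injury genes. The ratio of Cldn4 to Cldn3 differed by -1.96 log2 units, lower in tumors (SE 0.420, permutation adjusted p = 7.6e-04), with 5 tumors below every normal kidney.

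Cldn7, a claudin of the basolateral membrane as well as the junction (chromosome 11, 69964779 to 69967885, plus strand, 3 to 5 exons), ranged from 23.3 to 69.2 CPM with a median of 32.4 CPM in normal kidneys and from 17.3 to 48.1 CPM with a median of 26.4 CPM in tumors. In 4 tumors it was below every normal kidney, and normal kidneys 5 and 7 were the highest of all libraries. The log2 fold change was -0.48 (SE 0.218, adjusted p = 0.0741). Without normal kidney 10 the adjusted p was 0.047 and without tumor 9 it was 0.0209, while without normal kidneys 5, 7 and 8 the log2 fold change was -0.18 (adjusted p = 0.441).

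Cldn8, a claudin of the distal tubule and collecting duct with a single exon (chromosome 16, 88560828 to 88563183, minus strand), nearly vanished. Normal kidneys held 39.2 to 131.8 CPM with a median of 74.4 CPM, which was 630 to 2610 counts, and tumors held 0 to 0.811 CPM with a median of 0.190 CPM, which was 0 to 19 counts. Tumors 4, 6 and 10 had no count, and no tumor came near a normal kidney. The log2 fold change was -8.02 (SE 0.542, adjusted p = 1.78e-10), a level 259.9-fold lower. With so few counts in tumors the size is uncertain, and the log2 fold change ran from -7.86 to -9.65 over the alternatives, with the largest in limma-voom with quality weights.

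Against 8 principal cell markers, of which all 7 tested were lower in tumors with a median log2 fold change of -7.94, the 3 distal claudins were compared by their difference from the mean of the list. For Cldn8 the difference between tumors and normal kidneys was -1.19 log2 units (SE 0.335, permutation adjusted p = 0.00432), but it was -0.20 (permutation adjusted p = 0.557) with the 7 tested markers alone. The marker left out was Avpr2, the vasopressin receptor, at 0 to 0.115 CPM in normal kidneys and 0 to 0.221 CPM in tumors. A fall of Cldn8 beyond that of the principal cell markers was therefore not shown. Cldn4 and Cldn7 stayed 7.24 (SE 0.635) and 6.33 (SE 0.437) log2 units above the change of the markers, with every tumor above every normal kidney in both differences (permutation adjusted p = 5.5e-05 for each). The mean of the markers was 4.71 log2 CPM in normal kidneys and -2.09 in tumors, so both differences and their tests mostly restate the fall of the markers. These differences depend on the prior count because the markers are near 0 in tumors, and with a prior count of 0.5 they were 8.14 for Cldn4 and 7.23 for Cldn7, and with the 7 tested markers alone 8.23 and 7.32. The ratio of Cldn8 to Cldn4 was lower in every tumor than in every normal kidney, with a difference of -8.45 log2 units (SE 0.705, permutation adjusted p = 1.2e-04). The ratio of Cldn7 to Cldn4 differed by -0.90 log2 units (SE 0.426, permutation adjusted p = 0.0605), and by -1.42 without normal kidneys 5, 7 and 8 (permutation adjusted p = 0.00582). These kidneys had the lowest ratios of the normal kidneys, so leaving them out widens the difference by construction. Summed urothelial markers, another epithelium that makes Cldn4 and Cldn7, ranged from 0.342 to 126 CPM in tumors and from 4.27 to 43.5 CPM in normal kidneys, 0 of 5 were called, and their part in these levels was not tested.

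**Figure D2:**
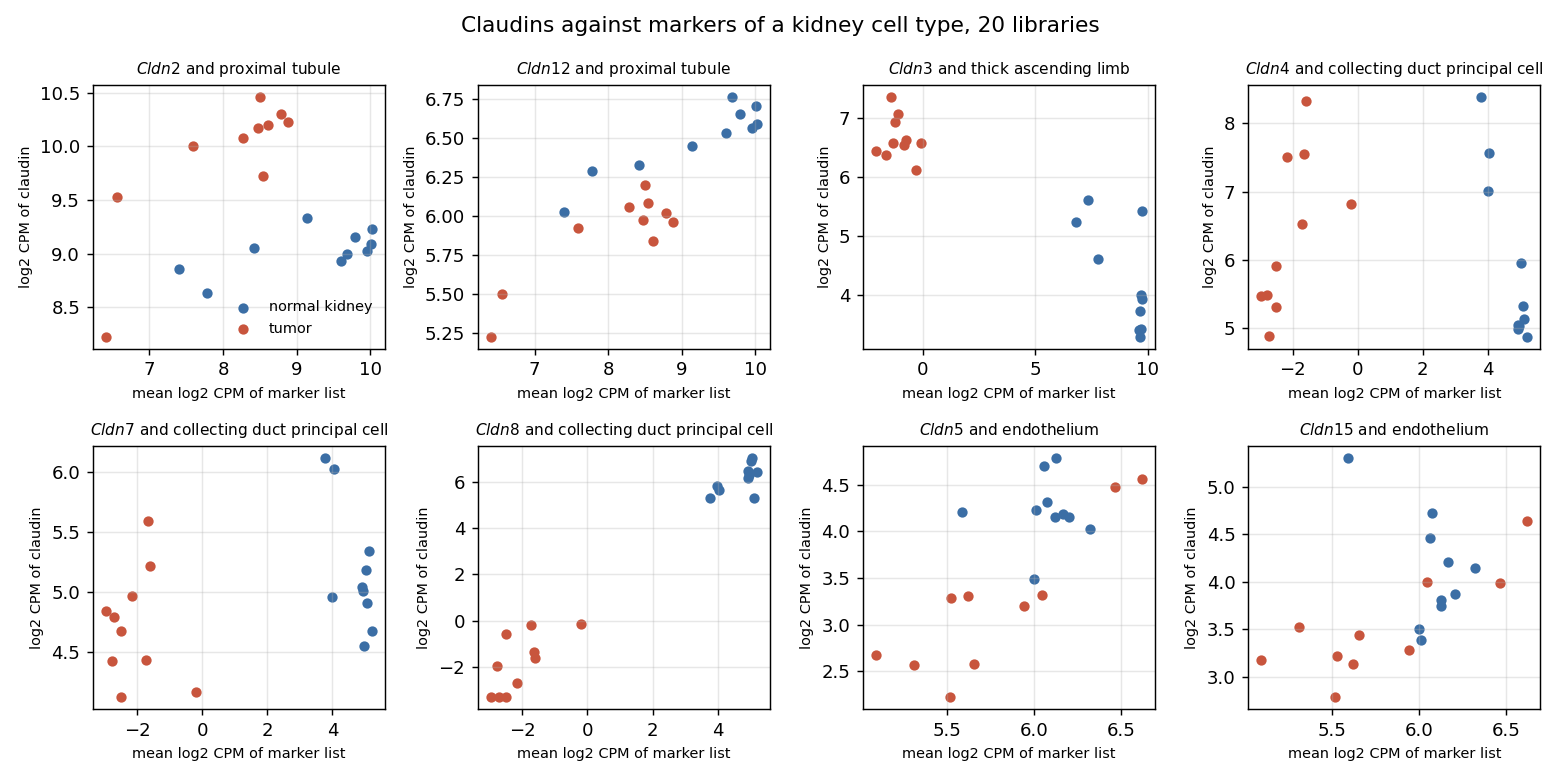
Log2 CPM of a claudin (y axis) against the mean log2 CPM of the markers of a kidney cell type (x axis) in 10 normal kidneys (blue) and 10 tumors (red), 1 point per library. Cldn8 was low in the tumors together with the principal cell markers. Cldn3 was higher in tumors, where the thick ascending limb markers were low. Cldn4 was not called, and Cldn7 was lower on average but not called (log2 fold change -0.48), where the principal cell markers were low.

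Cldn5, the claudin that seals the endothelium of blood vessels (chromosome 16, 18776847 to 18778262, plus strand, 1 exon), was lower in most tumors. It ranged from 11.2 to 27.6 CPM with a median of 18.3 CPM in normal kidneys and from 4.56 to 23.6 CPM with a median of 9.36 CPM in tumors. In 8 tumors it was below every normal kidney, and tumors 7 and 9, at 22.2 and 23.6 CPM, lay within the normal range. The log2 fold change was -0.84 (SE 0.272, adjusted p = 0.0148). Relative to Pecam1, an adhesion molecule of endothelium whose own log2 fold change was 0.07 (adjusted p = 0.811), Cldn5 was lower by a difference of -0.95 log2 units (SE 0.159, permutation adjusted p = 1.5e-04). Relative to all 8 endothelial markers it was lower by a difference of -0.72 (SE 0.186, permutation adjusted p = 0.00233), whereas Cldn15 differed from them by -0.31 (SE 0.247, permutation adjusted p = 0.266). Of these markers Cdh5, the cadherin of endothelial junctions, was higher with a log2 fold change of 0.83 (adjusted p = 0.0139), and Tek, the angiopoietin receptor, was lower with -1.70 (adjusted p = 3.18e-06).

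Cldn6 (chromosome 17, 23679249 to 23682446, plus strand) had 4 to 79 counts in normal kidneys, or 0.195 to 2.89 CPM with a median of 1.22 CPM, and 0 to 3 counts in tumors. No count was found in 6 tumors and the groups did not overlap. With the tumors set to a floor of 3 counts per library, or 0.147 CPM on average, Cldn6 was at least 10.1-fold lower in tumors. Fitted without the filter on low counts, its log2 fold change was -5.20 (SE 0.606, adjusted p = 3.78e-07), a value that depends on the counts added to libraries at 0.

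**Figure D3:**
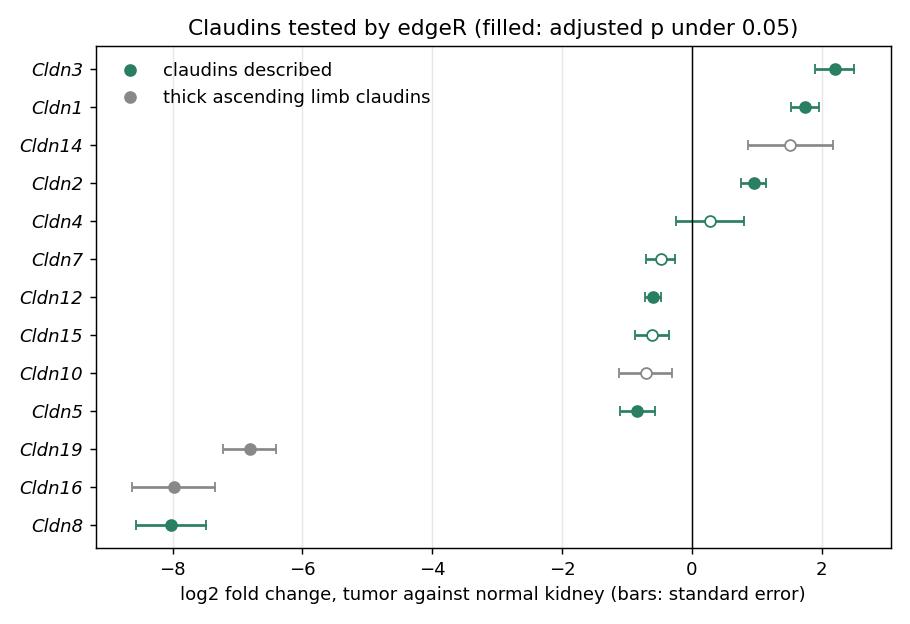
Log2 fold change of tumors against normal kidneys (x axis) with its standard error for the 9 tested claudins (green) and the 4 claudins of the thick ascending limb (gray), filled where the adjusted p was under 0.05. Values ran from 2.20 for Cldn3 to -8.02 for Cldn8, next to -7.98 for Cldn16 and -6.82 for Cldn19.

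The 10 claudins of a library were also compared as a sum. The summed level of the 10 claudins was 328.9 ± 48.6 CPM per kb in normal kidneys and 510.2 ± 113.9 CPM per kb in tumors (SD, n = 10 each), a difference of 181.3 CPM per kb (SE 39.2, permutation p = 4.7e-04). In 8 tumors the sum was above every normal kidney and in 1, tumor 7, it was below every normal kidney. Cldn2 alone went from 158.5 to 306.5 CPM per kb on average. Cldn10, set aside with the thick ascending limb claudins, is in neither the sum nor the order that follows. Its level was 58.6 ± 45.6 CPM per kb in normal kidneys, where its mean was above that of Cldn4, and 35.8 ± 18.6 CPM per kb in tumors. The order of levels per length among the 10 differed between the groups. In normal kidneys Cldn2 was followed by Cldn4 at 50.4 ± 55.5, Cldn8 at 32.3 ± 13.5, Cldn12 at 21.4 ± 3.14, Cldn7 at 19.8 ± 8.13 and Cldn3 at 18.1 ± 11.7 CPM per kb, and the order of these neighbors held in 4 to 9 of the 10 libraries. In tumors Cldn2 was followed by Cldn3 at 83.1 ± 22.5, Cldn4 at 61.2 ± 51.4, Cldn1 at 17.7 ± 6.25, Cldn7 at 14.1 ± 4.86 and Cldn12 at 14.1 ± 2.56 CPM per kb. Cldn3 was above Cldn4 in 8 of the 10 tumors, and Cldn7 and Cldn12 did not differ beyond their spread.

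As a share of that summed level, Cldn3 rose from 5.26 ± 2.93% to 16.5 ± 3.65%, with every tumor above every normal kidney (permutation adjusted p = 5e-05). Cldn1 rose from 1.62 ± 0.530% to 3.64 ± 1.41% (permutation adjusted p = 3e-04). Cldn8 went from 10.2 ± 4.82% to 0.031 ± 0.043% (permutation adjusted p = 5e-05). The shares of Cldn5, Cldn6, Cldn7, Cldn12 and Cldn15 also fell, with permutation adjusted p of 5e-05 to 0.00386. Shares add up to 100 within a library, so the abundance of Cldn2 and Cldn3 in tumors lowers the others by construction. Cldn2 itself held 49.3 ± 10.1% in normal kidneys and 59.1 ± 13.3% in tumors, a difference of 9.80 percentage points that did not pass the test (SE 5.28, permutation adjusted p = 0.0891) but did in several alternatives. It was 12.6 without tumor 7 (permutation adjusted p = 0.0199), 11.4 without length scaling (permutation adjusted p = 0.02) and 15.4 with all claudins of the table as the denominator (permutation adjusted p = 0.00319), while it was 4.52 without normal kidneys 5, 7 and 8 (permutation adjusted p = 0.4). The share of Cldn4, 13.8 ± 12.5% and 12 ± 8.95%, did not pass (permutation adjusted p = 0.727), and its difference turned from -1.76 to 5.28 percentage points without normal kidneys 5, 7 and 8 (permutation adjusted p = 0.174).

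**Figure D4:**
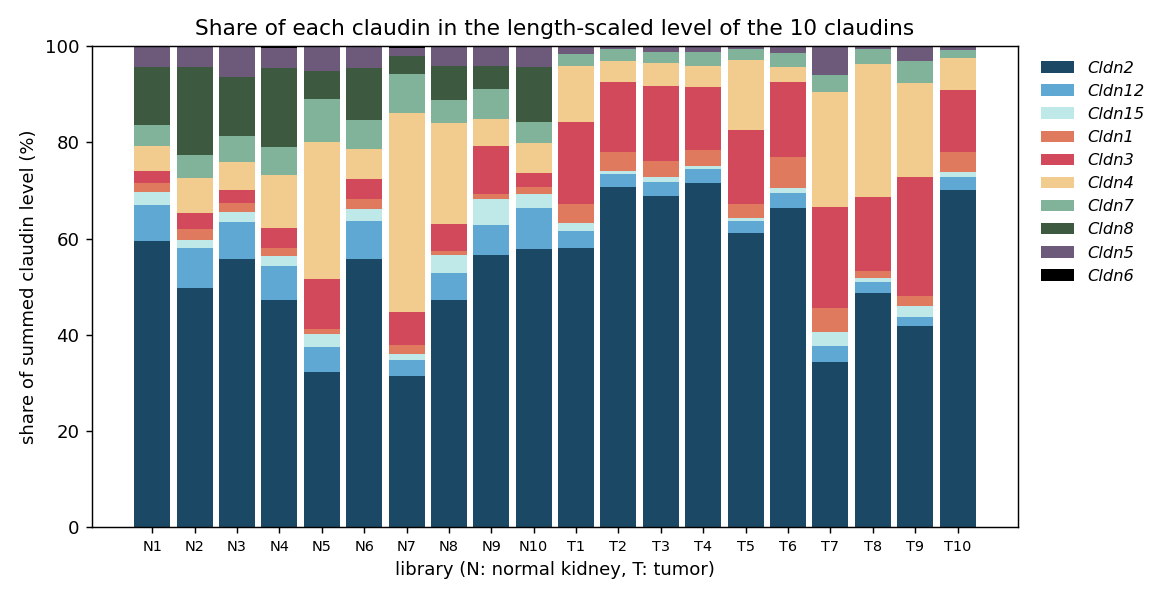
Share of each of the 10 claudins in their summed level per kb of gene length (y axis, percent) in each normal kidney (N1 to N10) and tumor (T1 to T10), as stacked bars that add up to 100%. Cldn3 took 16.5% on average in tumors and 5.26% in normal kidneys, and the band of Cldn8, 10.2% in normal kidneys, is not visible in tumors.

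Levels varied within groups as well. In normal kidneys Cldn2 and Cldn12 had the smallest spread, with a coefficient of variation of 13.2% and 14.6%, and Cldn4 had the largest at 110.1%. Within each condition, 22 relations between a claudin and a marker list were computed, with libraries that formed a separate cluster on the marker axis left out. Pearson's r passed an adjusted p of 0.05 in 9 of the 22 and, among those, 1 also had a p under 0.05 without the 2 libraries farthest from the median, while Spearman's rho passed in 0 after adjustment and in 7 before it. Cldn12 followed the proximal tubule markers in normal kidneys (Pearson's r = 0.92, permutation p = 3e-04, adjusted p = 0.0066; Spearman's rho = 0.82, permutation p = 0.00587, adjusted p = 0.056; n = 10), and r was 0.80 (permutation p = 0.0135) without the 2 farthest libraries. In tumors, Cldn5 followed the endothelial markers (r = 0.87, permutation p = 0.00172, adjusted p = 0.0126; rho = 0.79, permutation p = 0.00924, adjusted p = 0.056; n = 10), but r was 0.55 (permutation p = 0.162) without the 2 farthest libraries, so the relation rests on those. The same holds for Cldn2 and the proximal tubule markers in tumors (r = 0.82, permutation p = 0.00332, adjusted p = 0.0146; rho = 0.76, permutation p = 0.0153, adjusted p = 0.056; n = 10), where r was 0.34 (permutation p = 0.374) without the 2 farthest. Cldn4 followed the principal cell markers, themselves near 0, in tumors without tumor 7 (r = 0.86, adjusted p = 0.0173, rho = 0.80, adjusted p = 0.056, n = 9). There r was 0.70 (permutation p = 0.0792) without the 2 farthest. Pearson's r also passed for Cldn12 with proximal tubule markers (0.87) and Cldn15 with endothelial markers (0.81) in tumors. It passed for Cldn3 with thick ascending limb markers in 7 normal kidneys (0.77).

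Cldn4, Cldn7 and Cldn1 were compared with the tubule injury genes, a list of 7 genes of which 3 were called higher in tumors and 1 lower. Ptgds (log2 fold change 5.50), Anxa3 (3.43) and Vcam1 (1.93) were higher in tumors, Lcn2 (-5.00) was lower, and Havcr1, Sox9 and Krt20 were not called. For Cldn4 in normal kidneys (n = 10) r was 0.89 (permutation p = 0.00144, adjusted p = 0.0126) and rho was 0.64 (permutation p = 0.0559, adjusted p = 0.15), with r = 0.68 (permutation p = 0.069) without the 2 farthest libraries, so the call rests on them. For Cldn4 in tumors (n = 10) r was 0.64 (permutation p = 0.0473, adjusted p = 0.104) and rho was 0.62 (permutation p = 0.0612, adjusted p = 0.15), with r = 0.73 (permutation p = 0.0444) without the 2 farthest. For Cldn7 in normal kidneys (n = 10) r was 0.84 (permutation p = 0.00274, adjusted p = 0.0146) and rho was 0.79 (permutation p = 0.00844, adjusted p = 0.056), with r = 0.47 (permutation p = 0.236) without the 2 farthest. In tumors Cldn7 did not follow the injury genes (r = 0.03, adjusted p = 0.943, rho = 0.18). For Cldn1 r was -0.19 in normal kidneys (adjusted p = 0.772) and -0.38 in tumors (adjusted p = 0.44). Without the 2 farthest normal kidneys it was -0.80 (permutation p = 0.0159). Against the mean of these 7 genes, Cldn4 was lower in tumors by a difference of -1.84 log2 units (SE 0.366, permutation adjusted p = 1.83e-04) and Cldn7 by -2.75 (SE 0.463, permutation adjusted p = 5.5e-05). Cldn1 differed by -0.55 (SE 0.646, permutation adjusted p = 0.408), and by -1.52 (permutation adjusted p = 0.00957) without normal kidneys 5, 7 and 8. These kidneys were the lowest normal kidneys in Cldn1 relative to the injury genes, so leaving them out widens the difference by construction.

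**Figure D5:**
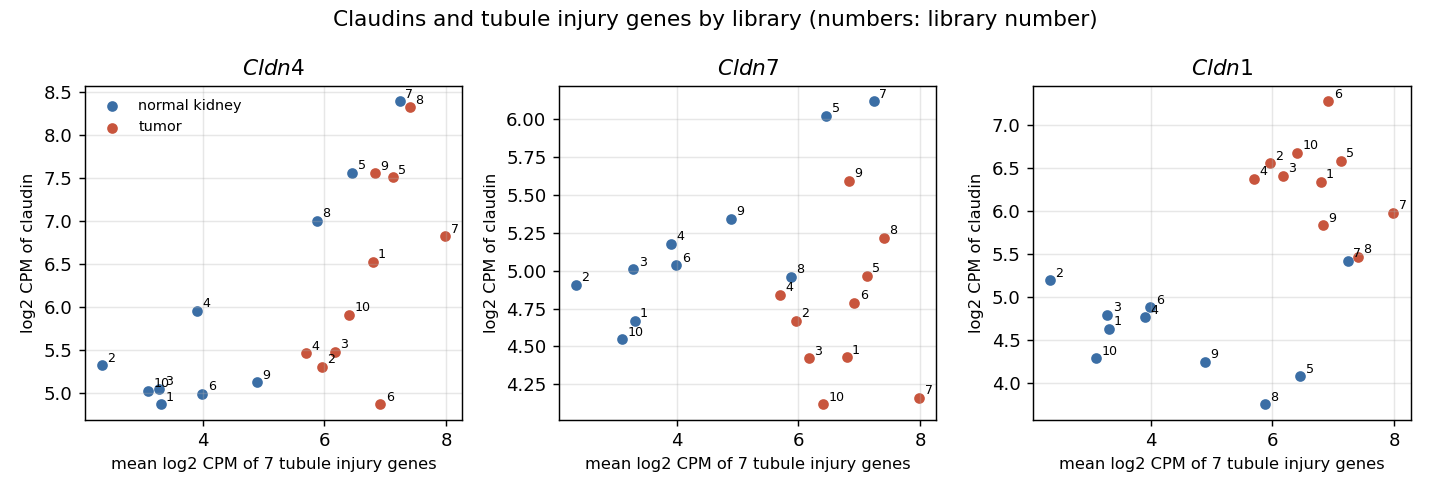
Log2 CPM of Cldn4, Cldn7 and Cldn1 (y axis) against the mean log2 CPM of 7 tubule injury genes (x axis) in normal kidneys (blue) and tumors (red), with the library number beside each point. Normal kidneys 5, 7 and 8 lie to the right of the other normal kidneys and highest in Cldn4, and tumors lie above the normal kidneys in Cldn1.

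With the mean of each condition removed, the genes most like a claudin over the 20 libraries were found by Pearson's r of log2 CPM among 13231 protein-coding genes. Cldn2 was close to Rab17 and Aph1c (r = 0.94 and 0.93). Cldn12 was closest to Efcab2, Crebl2 and Lrrc19 (0.95, 0.93 and 0.92). Cldn3 was closest to Vmp1, Rhoc and Tax1bp3 (0.94, 0.92 and 0.92), Cldn4 to Susd1, Sidt2 and Wbp1l (0.94, 0.90 and 0.90), and Cldn7 to Pdgfa, Cldn3 and Otulin (0.86, 0.81 and 0.80). Cldn5 was closest to Fyn, Rcan2 and Sparcl1 (0.86, 0.84 and 0.84), and Cldn15 to S1pr1, Ramp3 and Itm2c (0.89, 0.89 and 0.86), where S1pr1 is a sphingosine phosphate receptor of endothelium. Cldn8 was closest to Tfap2b, Casr and Rgs6 (0.85, 0.83 and 0.82), where Tfap2b is a transcription factor of the distal nephron, and Cldn1 to Afp, Htra1 and Prkaca (0.77, 0.76 and 0.74). The log2 SD of Cldn8 was 1.28 in tumors, at 0 to 19 counts, and 0.61 in normal kidneys. Its likeness therefore leans on values near 0 that depend on the prior count. Libraries share depth and cell makeup, and these values describe likeness only.

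The other claudins give the context. Of 25 others in the table, 5 were tested and 2 were called, both lower and both of the thick ascending limb: Cldn16 with a log2 fold change of -7.98 and Cldn19 with -6.82, partners in the passage of magnesium and calcium. The 5 tested were these with Cldn10, Cldn14 and Cldn34c1, and the other 20 were left out by the filter, 7 of them with no count in any library. Among all genes tested, 23.8% were called lower. Cldn14, with a log2 fold change of 1.51, was not called (adjusted p = 0.0619), and its call and size changed with single libraries left out, with 0.91 without tumor 6 (adjusted p = 0.225), 1.63 without tumor 7 (adjusted p = 0.0389) and 2.21 without normal kidney 5 (adjusted p = 0.00605). The 10 claudins described and those of the thick ascending limb share the same libraries, and the difference between the lists was not tested.

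Claudins work with scaffolds, other junction membrane proteins and polarity proteins, and 36 of 37 listed genes of these kinds were tested. Of them 6 were higher and 11 lower in tumors, with a median log2 fold change of -0.20, against 23.6% and 23.8% of all genes. Among 15 scaffold proteins, 2 were higher and 5 lower, led by Amotl2 with a log2 fold change of -1.05 (adjusted p = 6.31e-04), Cgn, which encodes cingulin, with -0.94 (adjusted p = 0.00401) and Magi1 with -0.81 (adjusted p = 1.53e-04). Tjp1, which encodes ZO-1 and ties claudins to actin, had -0.34 (adjusted p = 0.176).

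Of 6 MARVEL and tricellular proteins, 1 was higher and 2 were lower, beside 23.6% and 23.8% of all genes tested. Ildr1, an angulin that recruits tricellulin to corners where cells meet, fell from 42.4 ± 9.41 CPM to 0.320 ± 0.624 CPM (n = 10 each, ± SD), which is -6.94 on the log2 scale (adjusted p = 1.31e-08). Lsr, another angulin, was higher with 0.57 (adjusted p = 0.00382), and Marveld3 was lower with -1.52 (adjusted p = 5.2e-05). Ocln, which encodes occludin, had -0.16 (adjusted p = 0.449).

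Among 6 junctional adhesion molecules and related proteins, 3 were higher and 1 lower. The counts here and for polarity proteins are to be read against 23.6% higher and 23.8% lower over all genes tested. Bves, a Popeye domain protein found at epithelial junctions, rose from 0.113 ± 0.098 CPM to 16.8 ± 8.11 CPM (n = 10 each, ± SD), which is 7.07 on the log2 scale (adjusted p = 3.68e-09), Jam3 was lower with -1.10 (adjusted p = 5.66e-05), and Cxadr was higher with 0.69 (adjusted p = 0.0185). Of 9 tested polarity proteins, 0 were higher and 3 lower by edgeR, namely Lin7a (-2.09, adjusted p = 0.00261), Pard6g (-1.23, adjusted p = 0.0316) and Crb3 (-0.67, adjusted p = 0.00332).

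Of 16 genes known to control claudin genes or proteins, 1 was higher (2 without normal kidney 9) and 7 were lower, with a median log2 fold change of -0.68. Among all genes tested, 23.6% were called higher and 23.8% lower. Grhl2, a grainyhead factor that drives junction genes in distal epithelium, stood at -5.29 on the log2 scale (adjusted p = 8.42e-07), Lnx1, a ubiquitin ligase that acts on claudins, had -4.65 (adjusted p = 1.76e-06), and Ovol2, an epithelial transcription factor, had -3.61 (adjusted p = 9.84e-06). Klhl3, a ubiquitin ligase adaptor for which Cldn8 is a reported target, had -2.16 (adjusted p = 1.13e-04). The 1 that rose was Zeb2, a repressor of epithelial genes, with 0.99 (adjusted p = 1.12e-04). Immune cells also make Zeb2. Of 6 tested immune markers, 3 were called higher and 1, the T cell gene Cd8a, lower (log2 fold change -1.35, adjusted p = 0.045). The summed level of the immune markers was 203 to 731 CPM in tumors and 69.7 to 261 CPM in normal kidneys. The part of immune cells in the Zeb2 level was not tested.

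Of the general epithelial genes measured beside the claudins, Epcam, a partner of Cldn7 at the membrane, stood at -6.24 on the log2 scale (adjusted p = 2.83e-06) and Cdh1, which encodes E-cadherin, -2.64 (adjusted p = 9.1e-06). Cdh16, the kidney cadherin, had -0.03 (adjusted p = 0.919). Of all 6 general epithelial genes, 1 was called higher, 3 lower and 2 were not called. The 1 that was higher was Krt8, with 0.76 (adjusted p = 0.0466). Krt18 was lower with -2.13 (adjusted p = 0.00326), and Pax8 had 0.29 (adjusted p = 0.137). Epcam was at 1.88 ± 4.40 CPM against 145.4 ± 39.9 CPM, tumors against normal kidneys, beside Cldn7 at 27.6 ± 9.47 CPM against 38.5 ± 15.8 CPM (SD, n = 10 each).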

How the data were processed

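Poly A RNA from 10 tumors and 10 normal kidneys was sequenced, and the authors deposited raw read counts per gene, with gene coordinates and lengths. Their genome build was mm10, per the labels, and the counting tool was not given in the sources used here. Groups came from the sample labels, with 20 libraries and no covariate. Genes were filtered by filterByExpr with a count minimum of 10, which left 15354, scaled by TMM and tested with edgeR 4.0.16 (R 4.3.3) by quasi-likelihood with Benjamini-Hochberg adjustment over all genes tested, called at an adjusted p under 0.05. CPM used TMM sizes, log2 CPM a prior count of 2. Standard errors are on the log2 scale. Shares, ratios and differences from marker lists were compared by two-sided permutation tests with 100000 resamples, adjusted within each family of comparisons. Correlations used the same number of resamples. The alternatives were DESeq2 1.42.0, limma-voom 3.58.1, other scalings, no filter, a replicate block and libraries left out. Scripts were tested on simulated data. Upstream sequences were from RefSeq, GRCm38.p6, with entries for 9 of the 10 claudins. The genes named are the 10 claudins, the called genes with the 3 largest absolute log2 fold changes per list and the 3 most like genes per claudin, of which 1 is not reported here. Other genes were chosen after their values were seen: Tjp1, Ocln, Klhl3, Zeb2, Pecam1, Cdh5, Tek, Avpr2, Cd8a, the tubule injury genes, the general epithelial genes and the other claudins not called. The members and lists were chosen with earlier results of these data known. Counting error was small beside the spread between libraries except for Cldn6 and Cldn8 in tumors.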

Additional observations from a re-analysis of the deposited data

Results flagged for a closer look

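A library was singled out where its gap to the nearest other library of its group took up more than Dixon's critical share of the group's range, in 76 groups of 10 values, of which 8 had such a library. Chance flags about 1 in 20 groups. Tumor 7 accounted for 5 of the 8. Its Cldn2 level was 8.23 log2 CPM, whereas the rest of the tumors held 9.53 to 10.46. Its Cldn7 level relative to the principal cell markers was 4.36 log2 units, against 6.15 to 7.81, and relative to the tubule injury genes it was -3.83, against -2.36 to -0.86. Its share of Cldn5 was 5.97%, against 0.631 to 3.13%, and its share of Cldn6 was 0.028%, against 0 to 0.015%.

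Among normal kidneys, Cldn6 in normal kidney 8 was -1.76 log2 CPM, against 0.18 to 1.58 in the others. Cldn8 relative to the principal cell markers in normal kidney 9 was 0.20 log2 units, against 1.21 to 1.97. The summed level of the 10 claudins was 445.0 CPM per kb in normal kidney 7, the highest of its group. Tumor 7 and normal kidney 7 are also among the libraries described as standing apart in marker genes, and the part of those markers in these values was not tested.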

How the results depend on the processing

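No called result changed sign. Of those not called, the Cldn4 fold change did without tumor 8 (-0.06), its share difference without normal kidneys 5, 7 and 8 (5.28), and the Cldn12 to Cldn15 ratio without tumor 7 (0.11). With the tested principal cell markers alone the difference for Cldn8 was -0.20 and no longer passed. The count of claudins higher in tumors, 3, was 2 to 4 over the alternatives run, with Cldn4 also called without normal kidneys 5, 7 and 8. The count lower in tumors, 3, was 5 with upper quartile factors, with library totals, with quality weights in limma-voom and without tumor 7, 5 without tumor 1 and 6 without tumor 9, and leaving out 1 library gave 3 to 6. Leaving out a tumor lets Cldn6 pass the filter, and the rest of the gain was Cldn15 or Cldn7. Under limits of an absolute log2 fold change over 1 and an unadjusted p under 0.001, which called 8.85% of all genes higher and 10.2% lower, 1 claudin was lower (Cldn8). Library totals and upper quartile factors moved the center of the fold changes over all genes from -0.02 to -0.14 (log2, median).

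Of the other claudins, 6 were lower with no filter, and 1, Cldn14, was higher with DESeq2, limma-voom, quality weights, without tumor 7, without normal kidney 5 or without normal kidneys 5, 7 and 8. Of the tight junction partners, 3 were higher with library totals, 17 lower with quality weights, and 1 higher and 5 lower under the stricter limits. Of the regulators, 12 were lower with quality weights, 2 higher without normal kidney 9 or without it and tumor 7, and 0 higher under the stricter limits. The cause of these shifts was not tested.

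Of the 10 same-numbered pairs of tumor and normal kidney, 9 had deviations that correlated over 0.1 (lowest -0.143, highest 0.377), and 8 tumors and 5 normal kidneys correlated best with their own number. Since 1 pair fell short and the labels do not say what a number marks, the numbers were not taken as pairs. With a replicate block Cldn15 was called at a log2 fold change of -0.60 (adjusted p = 0.0064), the Cldn7 to Cldn4 ratio at -0.90 (permutation adjusted p = 0.00703), Cldn12 against proximal tubule markers at 0.51 (0.0451) and Cldn15 against endothelial markers at -0.31 (0.0134), and no other call of a claudin changed. The libraries left out singly beyond normal kidney 9 and tumor 7, and those left out together, and the list of tested markers alone, were chosen after seeing the data. Depth limits Cldn6 and Cldn8 in tumors, where counts reach 0.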
